A study of Mus musculus with 23 samples.

Results

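The genes examined here were 10 genes of the type 2 arm of immunity: the cytokines Il4, Il5, Il13 and Il9, the alarmins Il33 and Tslp, and the receptor chains Il1rl1, Il4ra, Il13ra1 and Il13ra2. They were taken by symbol from a table of 35322 genes, in which each of the 10 was listed once. Earlier results of these data were known when they were chosen. RNA-Seq had been performed on lung from 23 Balb/c offspring at 13 weeks of age, described as female, with 1 library each. The library of Sham replicate 1 went against that description. Sham offspring (n = 7) came from dams given intranasal saline and PM offspring (n = 7) from dams given PM2.5, the fine fraction of particulate air pollution, before mating, through gestation and until weaning. Sham-OVA (n = 5) and PM-OVA (n = 4) offspring had the same maternal exposures, were sensitised to ovalbumin (OVA) with an aluminium adjuvant, and then inhaled nebulised OVA, a model of allergic airway disease (AAD). The methods describe sensitisation for every offspring and nebulised saline for controls, so the Sham and PM groups may have been sensitised too. The Sham and PM groups inhaled saline according to the methods of the study, where the labels say PBS, and lungs were collected the day after the last challenge. The study describes the lungs sequenced as taken after lung function testing, in which anaesthetised animals were ventilated and given rising doses of nebulised methacholine. Its methods place airway lavage directly after that test. They do not say whether each lung sequenced had been lavaged. The offspring themselves did not inhale PM2.5. The tissue was a piece of the right lower lobe according to the methods, where the labels give lung with the abbreviation RML. The sources do not say which offspring shared a dam, so p-values measure the spread between these libraries. In whole lung, fewer cells of a type and less RNA per cell cannot be told apart.

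In a type 2 response, injured or stimulated epithelium releases the alarmins IL-33 and TSLP, which act on group 2 innate lymphoid cells, mast cells and T helper 2 (Th2) cells. IL-33 acts through ST2, the product of Il1rl1, and TSLP through a receptor built from the products of Crlf2 and Il7r. The responding cells secrete IL-4, which drives Th2 differentiation and the switch to IgE, IL-5, which matures and sustains eosinophils, IL-9, which acts on mast cells, and IL-13, which drives mucus production and airway hyperreactivity. IL-4 and IL-13 share a receptor chain encoded by Il4ra, which pairs with the common gamma chain (Il2rg) or with the product of Il13ra1 and signals through STAT6, whereas the product of Il13ra2 binds IL-13 tightly and is regarded mainly as a decoy. Il4, Il13 and Il5 lie next to each other on mouse chromosome 11, within 122 kb (GRCm38), in a cluster that Th2 cells open as a unit.

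Because these 3 cytokine genes are neighbours and were higher after OVA challenge in both cohorts, the 250 bases before their start sites are given here, followed by the same stretch for both annotated starts of Il1rl1, which lie 10.1 kb apart. Sequences are from RefSeq on GRCm38.p6, written 5′ to 3′ on the strand of the gene. Capitals mark matches on either strand to TTCNNNNGAA, the STAT6 motif, AGATAA for GATA factors, GGAAA for NFAT and TGACTCA for AP-1. The windows were chr11:53618666-53618915 (minus strand), chr11:53634703-53634952 (minus strand), chr11:53720544-53720793 (plus strand), chr1:40429320-40429569 (plus strand, distal start) and chr1:40439379-40439628 (plus strand, proximal start).
Il4: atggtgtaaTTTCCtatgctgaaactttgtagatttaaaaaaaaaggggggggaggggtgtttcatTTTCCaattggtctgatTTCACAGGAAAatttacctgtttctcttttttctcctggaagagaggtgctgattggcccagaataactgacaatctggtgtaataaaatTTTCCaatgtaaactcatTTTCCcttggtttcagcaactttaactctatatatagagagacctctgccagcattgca
Il13: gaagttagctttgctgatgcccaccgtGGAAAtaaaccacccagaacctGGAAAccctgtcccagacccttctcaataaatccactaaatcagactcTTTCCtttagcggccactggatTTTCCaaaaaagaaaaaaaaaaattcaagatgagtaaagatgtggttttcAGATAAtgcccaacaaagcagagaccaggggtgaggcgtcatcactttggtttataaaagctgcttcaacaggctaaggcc
Il5: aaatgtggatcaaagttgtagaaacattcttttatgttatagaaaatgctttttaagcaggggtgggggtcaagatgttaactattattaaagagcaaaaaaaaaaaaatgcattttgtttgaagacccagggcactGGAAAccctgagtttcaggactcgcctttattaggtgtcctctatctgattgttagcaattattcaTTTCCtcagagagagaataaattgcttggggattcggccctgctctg
Il1rl1 distal: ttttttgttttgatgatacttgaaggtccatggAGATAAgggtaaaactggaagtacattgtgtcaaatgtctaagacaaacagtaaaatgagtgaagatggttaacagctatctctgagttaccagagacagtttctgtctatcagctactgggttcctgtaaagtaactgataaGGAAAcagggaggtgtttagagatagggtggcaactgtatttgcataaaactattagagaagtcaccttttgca
Il1rl1 proximal: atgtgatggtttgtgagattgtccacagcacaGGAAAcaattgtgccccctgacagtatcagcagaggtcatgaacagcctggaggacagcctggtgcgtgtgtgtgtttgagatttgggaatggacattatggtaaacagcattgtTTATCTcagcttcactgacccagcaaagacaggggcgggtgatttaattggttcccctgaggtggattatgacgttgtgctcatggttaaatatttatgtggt

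Il4 has a second annotated start, whose window (chr11:53617339-53617588, minus strand) is not printed and held none of the 4 motifs. The Il4 window printed held 1 match to the STAT6 motif, which overlapped 1 of its 5 NFAT matches. The Il13 window held 1 GATA match and 4 NFAT matches, the Il5 window 2 NFAT matches, and each Il1rl1 window 1 GATA and 1 NFAT match. None of these 5 windows matched the AP-1 motif. Of 32536 promoter windows of the same length, 5.89% held the STAT6 motif, 9.97% the GATA motif, 55.7% the NFAT motif and 4.45% the AP-1 motif, so that NFAT matches in particular were common. Windows were taken for 9 of the 10 genes, and none for Tslp. Among the other starts, the STAT6 motif was present once in Il9 and once at 1 of the 2 starts of Il33, and the AP-1 motif once in Il9 and once in Il13ra2. The Il13ra1 window, with 70.8% G and C, held none of the 4 motifs. A match of letters is no evidence of binding.

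The values are RPM, reads on a gene scaled to the total of the library, which the authors' table gives under the name RPKM. Every value was a whole multiple of the value of 1 read of its library, so the reads on each gene could be recovered. Libraries held 13089691 to 17393579 reads on genes in the saline groups, but 2298645 to 12185451 in Sham-OVA and 4324326 to 12355561 in PM-OVA. In Sham-OVA replicate 3, the shallowest, 1 read was worth 0.311 RPM and a count of 0 allows a level of up to 0.932 RPM (3 reads, counting error only). PM-OVA replicates 3 and 4 were also shallow, at 0.133 and 0.182 RPM a read. Sham replicate 1 had 0.289 RPM of the female-specific Xist and 54.0 RPM of the Y-linked Eif2s3y, where the other 22 libraries had at least 174 RPM of Xist and none of Eif2s3y, so this library did not match a female. Leaving it out of Sham-OVA against Sham changed the call of none of the 8 genes tested. OVA and saline libraries also differed as a whole, with a median difference over all genes of -0.48 on the log2 scale in Sham and -0.43 in PM offspring. In every OVA library the shift from the Sham mean fell with transcript length (rank correlation -0.28 to -0.37). Saline libraries ran from -0.18 to 0.33, apart from Sham replicate 4 at -0.34. OVA challenge and this trend with length therefore cannot be fully told apart.

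Differences were fitted with limma on log2(RPM + 0.5) over the 16795 genes that reached 0.5 RPM in 4 or more libraries, and called at a Benjamini-Hochberg (BH) adjusted p under 0.05. This scale understates the fold change of low genes. Il9 and Il13ra2 did not pass that minimum, and Il4, Il5 and Il13 passed it only through their OVA libraries, so the minimum itself favours a difference for these 3 and counts that include them are descriptions. Without a filter on low values the 3 were still called in Sham offspring (limma, adjusted p = 0.023, 0.011 and 0.014), and Il4 and Il13 in PM offspring (adjusted p = 0.016 and 0.0082), but not Il5 there (adjusted p = 0.064) nor Tslp in Sham offspring (adjusted p = 0.075). After OVA challenge 4 genes were higher in Sham offspring (Il13, Il1rl1, Il5 and Il4) and 2 were lower (Il13ra1 and Tslp). Over all genes tested 20.6% were called higher and 47.5% lower. In PM offspring 5 were called higher, those 4 and Il33, and 2 lower, the same pair, where 20.1% of all genes were higher and 45.2% lower. The calls over all genes shifted towards higher with another scaling: quantile normalisation gave 5484 higher and 5812 lower in Sham offspring, against 3453 and 7978, and 5288 and 5445 in PM offspring, against 3379 and 7589. At the study's own threshold, an adjusted p under 0.000001 with an absolute log2 fold change above 1, none of the 8 was called with limma in either cohort, where 4.51% of all genes were called in Sham and 0.286% in PM offspring, although 8 of 8 in Sham and 7 of 8 in PM offspring had an unadjusted p under 0.05. DESeq2, the tool of the study, run on the recovered reads at that threshold, called Il1rl1 (log2 fold change 1.90, adjusted p = 6.5e-14) and Il5 (4.73, adjusted p = 3.3e-07) in Sham offspring, where 28.7% of all genes were called. In PM offspring it called Il1rl1 (1.45, adjusted p = 9.5e-15), where 16.8% were.

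**Figure D1:**
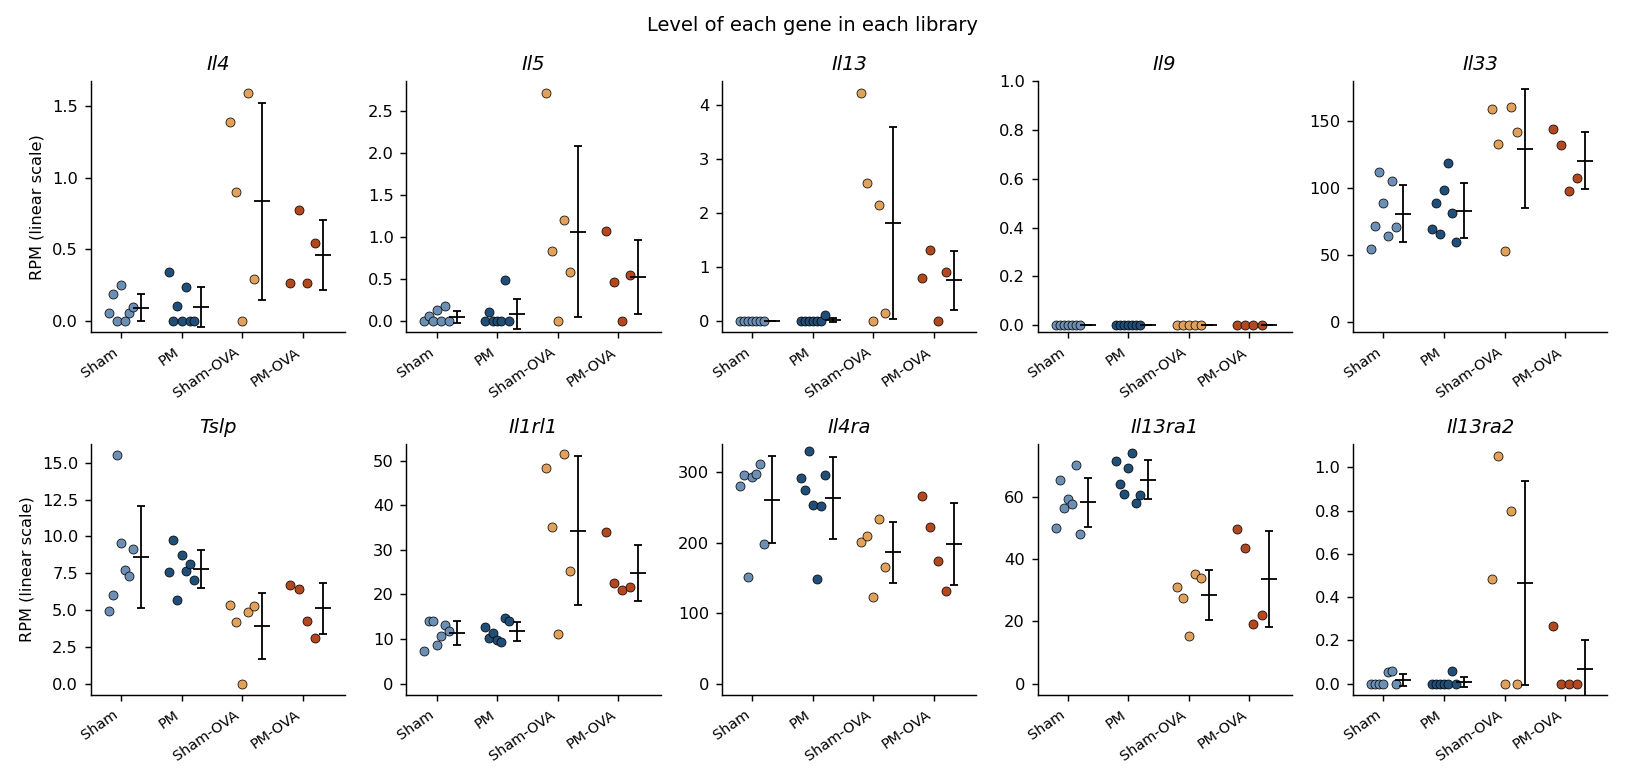
Level of each of the 10 genes in each library, in RPM on a linear axis, by group, with the mean and SD drawn beside the points. Il13 was at 0 in all 7 Sham libraries and reached 4.24 RPM in Sham-OVA, while Sham-OVA replicate 3 lay with the saline libraries for Il4, Il5, Il13, Il33 and Il1rl1.

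Among the cytokines, Il13 (chr11:53631324-53634702, minus strand, GRCm38) was not detected in any Sham library. In Sham-OVA replicates 1 to 5 it stood at 4.24, 2.56, 0, 2.15 and 0.146 RPM, from 61, 34, 0, 27 and 2 reads. In PM the only library with a read was replicate 7, at 0.114 RPM, and in PM-OVA replicates 1 to 4 the level was 0.806, 1.31, 0 and 0.908 RPM. Thus 3 of 5 Sham-OVA and 3 of 4 PM-OVA libraries stood clear of the saline libraries, Sham-OVA replicate 5 was barely above 0, and 1 shallow library in each OVA group had no read. The fitted log2 fold change was 1.73 ± 0.46 (SE) in Sham offspring (limma, adjusted p = 0.0040) and 1.14 ± 0.28 in PM offspring (adjusted p = 0.0037). Pooled over libraries, Sham-OVA held 124 reads, 61 of them in replicate 1, and Sham none. Against a floor of 3 reads over the Sham group the pooled level was 87.7-fold higher. That ratio takes the 124 reads as exact and leaves out the spread between animals. In PM offspring the ratio of pooled levels was 49.7 (34 against 2 reads, 95% exact binomial interval 12.7 to 427, counting error only).

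Il5 (chr11:53720794-53725106, plus strand) was also highest in Sham-OVA replicate 1 and absent from Sham-OVA replicate 3 and PM-OVA replicate 3, with smaller differences than Il13. Sham libraries ranged from 0 to 0.174 RPM with a median of 0, and Sham-OVA replicates 1 to 5 had 2.71, 0.828, 0, 1.20 and 0.584 RPM. PM libraries ranged from 0 to 0.489 RPM with a median of 0, and PM-OVA replicates 1 to 4 had 1.08, 0.464, 0 and 0.545 RPM. All Sham-OVA libraries but replicate 3 exceeded every Sham library. In PM offspring only 2 of 4 OVA libraries exceeded every PM library, as PM replicate 6 held 8 of the 10 reads of its group. On the log2 scale Il5 rose by 1.26 ± 0.33 in Sham offspring (limma, adjusted p = 0.0038) and 0.74 ± 0.29 in PM offspring (adjusted p = 0.040). The call in PM offspring was narrow: it was lost on leaving out any of PM replicates 1, 2, 3, 4, 5 and 7 or PM-OVA replicates 1, 2 and 4, with adjusted p of 0.054 to 0.13 and a lowest log2 fold change of 0.49. Pooled levels were 25.8 times higher in Sham-OVA than in Sham (73 against 6 reads, 95% exact interval 11.3 to 72.6) and 7.31 times higher in PM-OVA than in PM (25 against 10 reads, 3.39 to 17.1). An antisense transcript, Gm12214, overlaps exons of Il5 and never exceeded 0.115 RPM.

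Il4 (chr11:53602982-53618669, minus strand) was the weakest of the neighbours. It ranged from 0 to 0.254 RPM in Sham (median 0.0581) and stood at 1.39, 0.903, 0, 1.59 and 0.292 RPM in Sham-OVA replicates 1 to 5. It ranged from 0 to 0.344 RPM in PM (median 0) and was 0.269, 0.773, 0.266 and 0.545 RPM in PM-OVA replicates 1 to 4. All Sham-OVA libraries except replicate 3 lay above the Sham range, and 2 of the 4 PM-OVA libraries lay above the PM range. Its log2 fold change was 0.99 ± 0.31 in Sham (limma, adjusted p = 0.011) and 0.69 ± 0.22 in PM offspring (adjusted p = 0.014, and 0.051 without PM-OVA replicate 2). Pooled levels were 10.8 times higher in Sham-OVA (56 against 11 reads, 95% exact interval 5.60 to 22.9) and 5.05 times higher in PM-OVA (19 against 11 reads, 2.28 to 11.8).

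The calls of the 3 cytokines depended on how low values were handled. When reads were thinned to the depth of the shallowest library, the adjusted p in Sham offspring was 0.079 for Il4 and 0.078 for Il5, against 0.0069 for Il13. In PM offspring it was 0.012 for Il4 and 0.0102 for Il13, but 0.41 for Il5, whose log2 fold change was 0.36. When each library's trend with transcript length was removed, a step that also moves the values of libraries with 0 reads, the log2 fold changes fell to 0.42, 0.77 and 1.15 for Il4, Il5 and Il13 in Sham offspring, with adjusted p of 0.27, 0.066 and 0.048, and to 0.13, 0.25 and 0.58 in PM offspring, where none was called. edgeR on the recovered reads, which takes no pseudocount of this size, gave log2 fold changes of 3.56, 4.66 and 8.11 in Sham offspring (adjusted p = 0.00023, 4.68e-05 and 0.000174) and 2.53, 2.89 and 5.24 in PM offspring (adjusted p = 0.023, 0.024 and 0.00032). DESeq2 gave 3.55, 4.73 and 7.66 in Sham offspring (adjusted p = 1.2e-05, 3.3e-07 and 1.9e-05) and 2.65, 2.92 and 5.62 in PM offspring (adjusted p = 0.018, 0.067 and 1.8e-05), so that it did not call Il5 there.

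Il9 (chromosome 13, 56479277 to 56482246) had 0 reads in each of the 23 libraries. A group total of 0 allows levels of up to 0.0247 and 0.0251 RPM in the Sham and PM groups and up to 0.0525 and 0.0734 RPM in the Sham-OVA and PM-OVA groups (3 reads over the group), so any Il9 transcript was below detection at this depth. Its receptor gene Il9r was measured in all groups, at 3.02 ± 1.21 RPM (SD, n = 7) in Sham and 5.92 ± 4.08 (n = 5) in Sham-OVA, a difference that did not pass the test (limma, adjusted p = 0.087).

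Markers of the cells that make these cytokines also moved with OVA challenge. The summed level of 10 T cell markers ranged from 78.5 to 183 RPM in Sham and 157 to 317 RPM in Sham-OVA, and from 86.6 to 142 RPM in PM and 152 to 221 RPM in PM-OVA. Of these, 4 rose and 1 fell in Sham offspring and 3 rose and 1 fell in PM offspring, with Cd4 at 15.8 ± 3.3 RPM (SD, n = 7) in Sham and 52.0 ± 14.8 (n = 5) in Sham-OVA. Of 10 genes listed as markers of Th2 cells or group 2 innate lymphoid cells, not all of them particular to these cells, 1 rose and 4 fell in Sham offspring. In PM offspring 2 rose and 2 fell. Their summed level ranged from 165 to 279 RPM in Sham and 84.8 to 142 RPM in Sham-OVA, and from 148 to 188 RPM in PM and 102 to 146 RPM in PM-OVA. The one that rose in both cohorts was Gata3, the master regulator of Th2 fate, at 11.6 ± 3.0 RPM in Sham and 49.0 ± 10.9 in Sham-OVA (limma, log2 fold change 2.04 ± 0.21, adjusted p = 1.3e-06), while Rora and Ptgdr2 were among those that fell. Rora, which is not particular to these cells, made up much of the summed level of this list in the saline groups, at 111 ± 15.2 RPM in Sham and 105 ± 11.9 in PM. It was at 32.7 ± 10.2 RPM in Sham-OVA and 36.5 ± 17.6 in PM-OVA, so the lower sums there were in large part Rora. The summed level of 8 eosinophil markers ranged from 3.77 to 14.0 RPM in Sham and 66.5 to 353 RPM in Sham-OVA. The PM range was 4.93 to 16.1 RPM and that of PM-OVA 100 to 259 RPM. Of these 8, 6 were tested, and 5 rose and 1 fell in each cohort. Epx, which encodes eosinophil peroxidase, was at 0 in all saline libraries and at 1.94 ± 0.83 RPM in Sham-OVA. Among all genes tested, 20.6% were called higher and 47.5% lower in Sham, and 20.1% and 45.2% in PM offspring. The counts of these 3 marker lists are descriptions. The part of these cells in the cytokine levels was not tested.

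**Figure D2:**
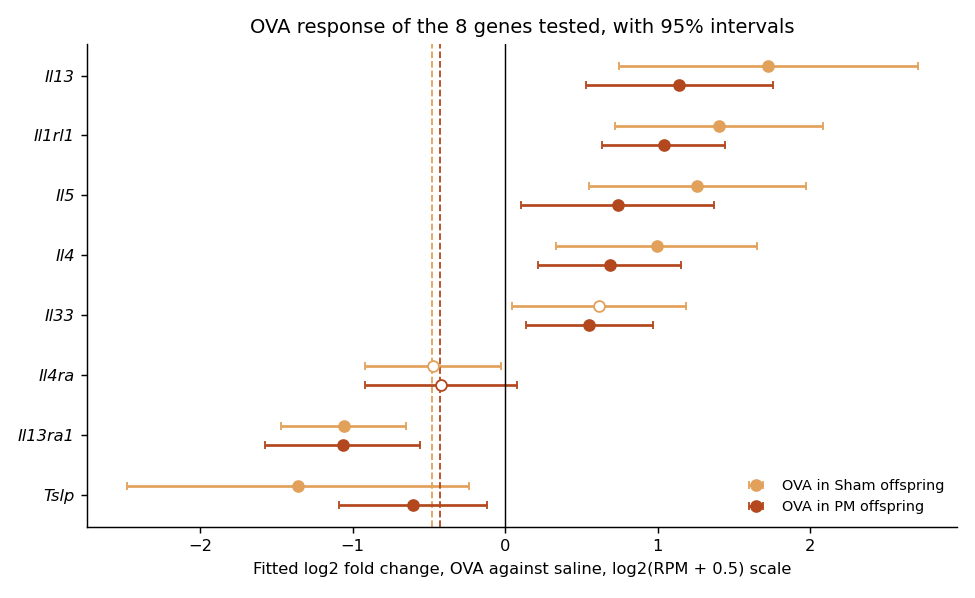
Fitted log2 fold change of OVA against saline for the 8 genes tested, on the log2(RPM + 0.5) scale, with 95% intervals, in Sham (light) and PM (dark) offspring. Filled points had a BH adjusted p under 0.05, and dashed lines mark the median of all 16795 genes, -0.48 and -0.43. Il4ra sat on those lines, and Il13ra1 and Tslp were the genes below them.

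Il33, a nuclear cytokine stored mainly by alveolar type 2 cells in the mouse and released on damage, was abundant throughout. It ranged from 54.4 to 112 RPM in Sham (median 71.4) and was 159, 133, 52.8, 161 and 142 RPM in Sham-OVA replicates 1 to 5. It ranged from 59.9 to 119 RPM in PM (median 81.4) and was 144, 132, 97.8 and 108 RPM in PM-OVA replicates 1 to 4. In Sham-OVA every library but replicate 3 was above the Sham range, while replicate 3 was below it, and 2 of 4 PM-OVA libraries were above the PM range. The log2 fold change was 0.62 ± 0.27 in Sham offspring and missed the threshold (limma, adjusted p = 0.052), and it was 0.55 ± 0.19 in PM offspring (adjusted p = 0.023). In Sham offspring the call turned on single libraries: without Sham-OVA replicate 3 the log2 fold change was 0.91 (adjusted p = 0.00013), and the gene was also called without Sham replicate 3 (0.70, adjusted p = 0.036) or Sham replicate 6 (0.69, adjusted p = 0.042). In PM offspring it was lost without PM-OVA replicate 1 (0.46, adjusted p = 0.054) or PM-OVA replicate 2 (0.50, adjusted p = 0.060). Scaling that removes the general shift gave larger values, 0.93 with quantile normalisation and 0.98 with median-of-ratios scaling in Sham offspring (adjusted p = 0.0012 and 0.00032).

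The alveolar type 2 list had a higher median sum after OVA challenge in both cohorts, but its markers did not all move in the same direction. Its 8 markers summed to 14645 to 25576 RPM in Sham, 31065 to 37867 in Sham-OVA, 17791 to 32815 in PM and 25299 to 44638 in PM-OVA, and 3 of them rose (the surfactant genes Sftpc, Sftpa1 and Sftpd), 3 fell and 2 were not called in both cohorts. Over all genes 20.6% were called higher and 47.5% lower in Sham, and 20.1% and 45.2% in PM offspring. Within the OVA groups the sum of the alveolar type 2 markers did not follow Il33. In PM-OVA, replicate 1 had the highest Il33 and the lowest sum, and replicate 3 the lowest Il33 and the highest sum. Sham-OVA replicate 3, lowest in Il33, had a sum within the range of the other libraries of its group. The part of alveolar type 2 cells in the level of Il33 was not tested.

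Tslp, an epithelial cytokine that primes dendritic cells, is encoded on chromosome 18 (32815383 to 32819797, plus strand). It ranged from 4.91 to 15.5 RPM in Sham (median 7.75) and was 5.35, 4.21, 0, 4.86 and 5.26 RPM in Sham-OVA replicates 1 to 5. It ranged from 5.71 to 9.77 RPM in PM (median 7.63) and was 6.72, 6.41, 4.25 and 3.09 RPM in PM-OVA replicates 1 to 4. The 4 deeper Sham-OVA libraries were close to each other, 2 of them within and 2 below the Sham range, and 2 of 4 PM-OVA libraries were below the PM range. Replicate 3 of Sham-OVA had no read although 3 reads there correspond to only 0.932 RPM. The log2 fold change was -1.36 ± 0.53 in Sham offspring (limma, adjusted p = 0.032) and -0.61 ± 0.22 in PM offspring (adjusted p = 0.030). Without Sham-OVA replicate 3 the former was -0.67 (adjusted p = 0.016), and the call was lost without Sham replicate 3 (-1.21, adjusted p = 0.064), Sham replicate 4 (-1.32, adjusted p = 0.053) or Sham replicate 7 (-1.33, adjusted p = 0.052). In PM offspring it was lost without PM replicates 2, 4 or 6 or PM-OVA replicates 3 or 4, with adjusted p from 0.052 to 0.10. Relative to the median of all genes the difference was -0.88 in Sham and -0.18 in PM offspring, and with quantile normalisation or median-of-ratios scaling it was not called in either cohort (log2 fold changes of -0.89 and -1.17 in Sham and -0.15 and -0.27 in PM offspring).

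Of the receptor chains, Il1rl1 (chromosome 1, 40429570 to 40465415, plus strand) rose in both cohorts. It ranged from 7.27 to 14.0 RPM in Sham (median 11.8) and was 48.3, 35.1, 11.2, 51.6 and 25.3 RPM in Sham-OVA replicates 1 to 5. It ranged from 9.33 to 14.7 RPM in PM (median 11.4) and was 34.1, 22.6, 21.0 and 21.6 RPM in PM-OVA replicates 1 to 4. Every PM-OVA library was above every PM library, and in Sham-OVA only replicate 3 lay within the Sham range. The rise was 1.40 ± 0.32 on the log2 scale in Sham offspring (limma, adjusted p = 0.0013) and 1.04 ± 0.19 in PM offspring (adjusted p = 0.00051). The call held in all 25 and 24 other fits, with log2 fold changes from 1.21 to 1.99 in Sham and 0.88 to 1.46 in PM offspring. One value was given for the gene, so the membrane-bound and soluble forms of ST2 and the distal and proximal starts could not be separated. Among other cells that carry ST2, the summed level of 8 mast cell markers was 189 to 291 RPM in Sham and 35.1 to 137 RPM in Sham-OVA, and 101 to 380 RPM in PM and 45.2 to 156 RPM in PM-OVA. Most of that sum was Kit, which is not particular to mast cells and fell from 253 ± 36.3 RPM in Sham to 82.0 ± 36.8 in Sham-OVA. The mast cell tryptase Tpsb2 was at 0.782 ± 0.309 RPM (SD, n = 7) in Sham against 5.52 ± 0.89 (n = 5) in Sham-OVA. In PM it was at 1.11 ± 0.63 (n = 7) against 3.03 ± 1.483 (n = 4) in PM-OVA, and it rose in both cohorts. Of 7 mast cell markers tested 3 rose and 1 fell in Sham and 3 rose and 2 fell in PM offspring. Over all genes 20.6% were called higher and 47.5% lower in Sham, and 20.1% and 45.2% in PM offspring. The part of these cells in the level of Il1rl1 was not tested.

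Il13ra1 (chromosome X, 36112110 to 36171259, plus strand), which forms the type II IL-4 receptor with Il4ra, fell in both cohorts. It ranged from 48.2 to 70.4 RPM in Sham (median 57.7) and was 30.99, 27.5, 15.2, 35.1 and 33.9 RPM in Sham-OVA replicates 1 to 5. It ranged from 58.2 to 74.1 RPM in PM (median 64.1) and was 49.6, 43.7, 19.1 and 21.97 RPM in PM-OVA replicates 1 to 4. No OVA library reached the saline range of its cohort. The log2 fold change was -1.06 ± 0.19 in Sham offspring (limma, adjusted p = 0.00023) and -1.07 ± 0.23 in PM offspring (adjusted p = 0.0018), or -0.58 and -0.64 relative to the median of all genes. It was called lower in all 25 and 24 other fits. Its size varied with the shallow libraries, and without the 3 of them named above the values were -0.85 in Sham (adjusted p = 6.9e-06) and -0.48 in PM offspring (adjusted p = 0.0055). Those fits kept 4 Sham-OVA and 2 PM-OVA libraries.

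Il4ra (chromosome 7, 125552120 to 125579474, plus strand) was the most abundant of the 10 genes in reads. It ranged from 151 to 311 RPM in Sham (median 293) and was 201, 210, 123, 234 and 165 RPM in Sham-OVA replicates 1 to 5. It ranged from 148 to 330 RPM in PM (median 275) and was 266, 221, 173 and 131 RPM in PM-OVA replicates 1 to 4. The groups overlapped in both cohorts. The log2 fold change was -0.48 ± 0.21 in Sham (limma, adjusted p = 0.055) and -0.42 ± 0.23 in PM offspring (adjusted p = 0.12), within 0.01 of the median of all genes in each cohort. It passed the threshold without Sham replicate 3 (-0.60, adjusted p = 0.0095), Sham replicate 7 (-0.54, adjusted p = 0.042) or Sham-OVA replicate 4 (-0.57, adjusted p = 0.037), and in PM offspring without PM replicate 5 (-0.56, adjusted p = 0.019) or PM-OVA replicate 1 (-0.58, adjusted p = 0.036). Sham replicates 3 and 7 and PM replicate 5, the saline libraries with the lowest Il4ra, also had the lowest summed level of 8 endothelial markers in their groups, at 2815, 3362 and 1705 RPM, where the other saline libraries had 4795 to 6050 RPM. In the OVA groups the lowest Il4ra did not go with the lowest sum. Sham-OVA replicate 3, lowest in Il4ra, had 4076 RPM of these markers, where its group ranged from 3378.5 to 4247 RPM. PM-OVA replicate 4, lowest in Il4ra of its group, had 4234 RPM. PM-OVA replicate 1, highest in Il4ra there, had the lowest sum of its group, 3363.5 RPM. The part of endothelium in the level of Il4ra was not tested. An antisense transcript that overlaps its exons, Gm44876, had no read.

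Il13ra2 (chromosome X, 147383476 to 147429192, minus strand) was nearly silent without OVA challenge, with 2 reads in Sham and 1 in PM. In Sham-OVA replicates 1 to 5 it stood at 0.486, 1.05, 0, 0.797 and 0 RPM, from 7, 14, 0, 10 and 0 reads. In PM-OVA only replicate 1 had reads, 4 in all, at 0.269 RPM. Thus 3 of 5 Sham-OVA libraries exceeded every Sham library and the others had none. The difference of mean log2(RPM + 0.5) was 0.75 in Sham offspring (two-sided exact permutation test, p = 0.091, the smallest possible being 0.0013), 0.13 in PM offspring (p = 0.73) and -0.64 in PM-OVA against Sham-OVA (p = 0.24), none of which passed 0.05. The pooled ratio was 32.9 in Sham offspring (31 against 2 reads, 95% exact interval 8.37 to 284), an interval that counts reads and not animals.

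Levels of different genes can be set side by side only per length, as RPM per kb of exon. On that scale the order in Sham was Il4ra (43.5 ± 10.2, SD, n = 7), Il33 (28.0 ± 7.5), Il13ra1 (15.7 ± 2.1), Tslp (6.46 ± 2.60) and Il1rl1 (1.65 ± 0.38), followed by Il4 (0.0768 ± 0.0780) and Il5 (0.0339 ± 0.0471). The libraries of Il4ra and Il33 overlapped, as did those of Il33 and Il13ra1, and those of Il4 and Il5. In Sham-OVA Il33 came first (44.9 ± 15.4, n = 5), then Il4ra (31.1 ± 7.2), Il13ra1 (7.69 ± 2.16), Il1rl1 (4.97 ± 2.42), Tslp (2.96 ± 1.69) and Il13 (1.51 ± 1.47). Il33 and Il4ra overlapped there, and so did Il13ra1, Il1rl1 and Tslp. In PM-OVA the per-kb level was 41.7 ± 7.4 (n = 4) for Il33, 32.97 ± 9.7 for Il4ra, 9.05 ± 4.12 for Il13ra1, 3.84 ± 1.31 for Tslp, 3.60 ± 0.90 for Il1rl1 and 0.628 ± 0.457 for Il13, again with overlap between Il33 and Il4ra and between Tslp and Il1rl1. Il13ra2 lay below all of these, at 0.00713 ± 0.0122 in Sham, 0.205 ± 0.207 in Sham-OVA and 0.0295 ± 0.0589 in PM-OVA. In each group Il4ra, Il33, Il13ra1, Tslp and Il1rl1 thus had higher mean levels per length than Il4, Il5, Il13 and Il9, whereas Il13ra2 did not.

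Maternal PM2.5 exposure was compared with and without OVA challenge. In PM against Sham none of the 8 genes was called (limma, adjusted p of at least 0.90), none had an unadjusted p under 0.05, and edgeR and DESeq2 also called none, where 0% of all 16795 genes were called (731 at an unadjusted p under 0.05). The log2 differences ran from -0.07 to 0.17. The largest was that of Il13ra1, at 58.2 ± 7.9 RPM (SD, n = 7) in Sham and 65.5 ± 6.2 in PM (0.17 ± 0.09, 95% interval -0.01 to 0.36). For Il33 the interval of the difference was -0.32 to 0.41, for Tslp -0.48 to 0.34 and for Il1rl1 -0.27 to 0.38.

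In PM-OVA against Sham-OVA again none of the 8 was called (adjusted p = 1.0) and none had an unadjusted p under 0.05, and the other tools called none, against 0% of all genes (313 at an unadjusted p under 0.05, and 3213 without the 3 shallow libraries). The latter fit kept only 2 PM-OVA libraries. Mean levels of Il13 were 1.82 ± 1.78 RPM (SD, n = 5) in Sham-OVA and 0.757 ± 0.550 (n = 4) in PM-OVA, those of Il5 1.06 ± 1.02 and 0.521 ± 0.440, those of Il4 0.836 ± 0.685 and 0.463 ± 0.245, and those of Il1rl1 34.3 ± 16.7 and 24.8 ± 6.2. The log2 difference was -0.54 ± 0.71 for Il13 (95% interval -2.14 to 1.05), -0.48 ± 0.52 for Il5 (-1.63 to 0.68) and -0.31 ± 0.42 for Il1rl1 (-1.25 to 0.63). For Tslp it was 0.69 ± 0.72 (-0.93 to 2.30), and -0.00041 without Sham-OVA replicate 3. Leaving out 1 library moved the difference between -0.97 (without Sham-OVA replicate 3) and -0.15 (without PM-OVA replicate 3) for Il13, between -0.83 (without Sham-OVA replicate 3) and -0.16 (without Sham-OVA replicate 1) for Il5, and between -0.66 (without Sham-OVA replicate 3) and -0.12 (without Sham-OVA replicate 4) for Il1rl1. Intervals of this width leave both no difference and a several-fold one possible for the cytokines. Sham-OVA replicate 3 carries part of that spread: without it the Sham-OVA means were 2.27 ± 1.68 RPM for Il13, 1.33 ± 0.95 for Il5, 1.04 ± 0.58 for Il4 and 40.1 ± 12.2 for Il1rl1 (n = 4), and no gene was called then either.

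An interaction term fitted over all 4 groups asks whether the response to OVA differed between the cohorts. None of the 8 genes was called (limma, adjusted p = 0.99976), with none at an unadjusted p under 0.05 and none called by edgeR or DESeq2, against 0% of all genes (854 at an unadjusted p under 0.05). The interaction term, PM minus Sham offspring, was -0.58 ± 0.59 for Il13 (95% interval -1.80 to 0.63), -0.52 ± 0.47 for Il5 (-1.48 to 0.44), -0.36 ± 0.40 for Il1rl1 (-1.19 to 0.46) and 0.76 ± 0.63 for Tslp (-0.55 to 2.06). Il33, called in PM and not in Sham offspring, had a term of -0.07 ± 0.35 (-0.79 to 0.66). Without Sham-OVA replicate 3 the term was -1.02 for Il13, -0.87 for Il5, -0.71 for Il1rl1 and 0.069 for Tslp. At the other end it was -0.19 for Il13 without PM-OVA replicate 3, -0.20 for Il5 without Sham-OVA replicate 1, -0.17 for Il1rl1 without Sham-OVA replicate 4 and 0.96 for Tslp without Sham-OVA replicate 1. Without the 3 shallow libraries 4.29% of all genes were called (3989 at an unadjusted p under 0.05), though none of the 8. That fit rested on 2 PM-OVA libraries.

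**Figure D3:**
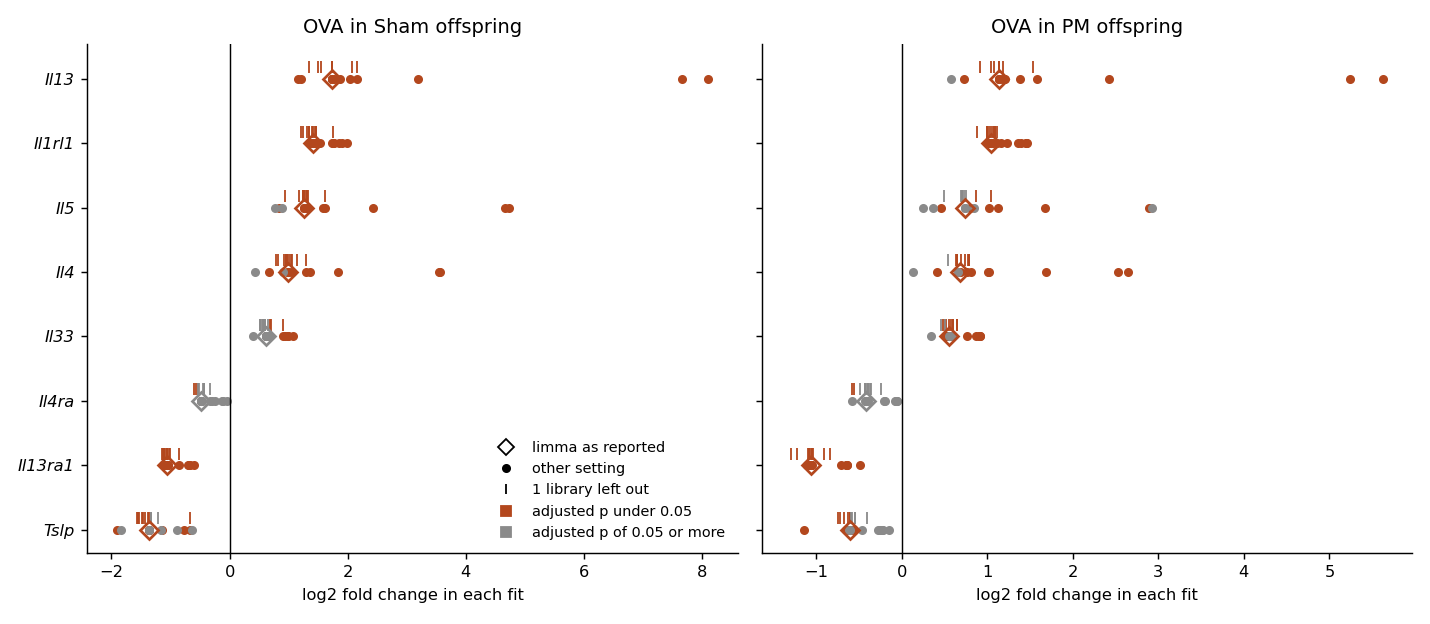
Log2 fold change of OVA against saline for the 8 genes under each alternative fit in Sham (left) and PM (right) offspring. Diamonds are the limma fit as reported, dots other settings and ticks fits with 1 library left out, in colour where the BH adjusted p was under 0.05 and grey where it was not. Il1rl1 and Il13ra1 are coloured throughout, while the far-right dots of Il13, Il5 and Il4 are the count models, up to 8.11 for Il13.

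The other genes of the pathway were followed in 5 lists, compiled by hand, of 80 genes in all, of which 75 were tested. In Sham offspring 38 rose and 21 fell, with a median log2 fold change of 0.67 against -0.48 over all genes. In PM offspring 34 rose and 19 fell, with a median of 0.41 against -0.43. Of the 75, 51 were called in both cohorts and each of these in 1 direction, 8 in Sham offspring only and 2 in PM offspring only. Among all genes tested, 20.6% were called higher and 47.5% lower in Sham, and 20.1% and 45.2% in PM offspring. Some of the 75, such as Il10 and Il21, passed the minimum only through their OVA libraries. For these a rise was favoured, so the counts of the lists are descriptions.

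The genes that IL-4 and IL-13 are known to induce carried most of the rise. Of 24 targets, 20 rose and 2 fell in Sham offspring and 18 rose and 2 fell in PM offspring, with median log2 fold changes of 3.27 and 3.14. The mucus cell gene Clca1 stood at 1.18 ± 2.23 RPM (SD, n = 7) in Sham and 1085 ± 505 (n = 5) in Sham-OVA (limma, log2 fold change 9.86 ± 0.56, adjusted p = 8.3e-09). Its PM mean of 25.5 ± 67.2 RPM compared with 2253 ± 1565 in PM-OVA (10.54 ± 1.38, adjusted p = 9.1e-05). Retnla, a marker of alternatively activated macrophages, rose by 9.74 ± 0.43 and 9.12 ± 0.67, and the epithelial anion exchanger gene Slc26a4 by 6.35 ± 0.27 and 5.68 ± 0.46 on the log2 scale. The pair that fell was Tgm2, at -1.47 ± 0.28 and -1.52 ± 0.29, and the matrix gene Postn, at -1.11 ± 0.27 and -1.24 ± 0.20. Sham-OVA replicate 3, which had no read of Il4, Il5 or Il13, had 1338 RPM of Clca1, 11407 of Retnla and 154 of Slc26a4, far above the highest saline values of 178, 133 and 10.9 RPM.

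Of 13 other receptor chains tested, 4 rose and 4 fell in Sham offspring and 3 rose and 3 fell in PM offspring. These counts are descriptions beside 20.6% higher and 47.5% lower among all genes in Sham, and 20.1% and 45.2% in PM offspring. Il5ra, the IL-5 receptor chain of eosinophils, rose by 3.18 ± 0.20 in Sham (limma, adjusted p = 2.0e-08) and 2.47 ± 0.33 in PM offspring (adjusted p = 0.00010), Il21r by 1.20 ± 0.31 and 0.71 ± 0.26, and Crlf2, the chain specific to TSLP, by 0.73 ± 0.19 and 0.55 ± 0.19. Il1rap, the co-receptor of ST2, fell by 2.37 ± 0.45 and 1.95 ± 0.33, from 30.0 ± 6.1 RPM in Sham to 6.82 ± 3.89 in Sham-OVA. Osmr fell by 1.85 ± 0.36 and 1.86 ± 0.44, while Csf2ra was lower by 1.86 ± 0.74 in Sham offspring (adjusted p = 0.037) and had a log2 fold change of -1.40 ± 0.59 in PM offspring (adjusted p = 0.053). Thus the chains specific to IL-33 and to TSLP rose while a partner chain of the first fell, and Il7r, the partner of the second, had log2 fold changes of -1.09 ± 0.30 and -1.15 ± 0.33 (adjusted p = 0.0049 and 0.0087).

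Of 21 kinases, adaptors and feedback genes, 6 rose and 10 fell in Sham offspring and 7 rose and 10 fell in PM offspring, with medians of -0.38 and -0.33. Shares over all genes tested were 20.6% higher and 47.5% lower in Sham, and 20.1% and 45.2% in PM offspring. The counts of this list and of the transcription factors are descriptions. The feedback inhibitor Socs1 rose by 2.96 ± 0.23 and 2.51 ± 0.25, the phosphatase gene Ptpn6 by 1.38 ± 0.25 and 0.92 ± 0.25, and Stat3 by 1.05 ± 0.16 and 1.00 ± 0.19. The phosphatase gene Ptpn11 fell by 4.15 ± 0.40 and 4.46 ± 0.87, the adaptor gene Irs1 fell by 1.503 ± 0.20 and 1.60 ± 0.24, and Jak1 fell by 1.21 ± 0.25 and 1.41 ± 0.30. Stat6 itself, which transmits the IL-4 and IL-13 signal, was at 139 ± 10.8 RPM in Sham and 125 ± 8.47 in Sham-OVA and was not called (adjusted p = 0.21). Of 12 transcription factors, 5 rose and 4 fell in each cohort. Irf4 rose by 4.32 ± 0.21 and 3.75 ± 0.34, Gata3 by 2.04 ± 0.21 and 1.65 ± 0.31 and the PU.1 gene Spi1 by 1.92 ± 0.23 and 1.51 ± 0.14, while Rora fell by 1.80 ± 0.20 and 1.63 ± 0.24, Pparg by 1.11 ± 0.30 and 1.44 ± 0.41 and Nfatc1 by 0.92 ± 0.28 and 0.96 ± 0.25.

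Of 9 other cytokines linked to type 2 responses, 5 were tested, and 3 rose and 1 fell in Sham offspring and 1 rose in PM offspring. Of those tested, Il10 and Il21 passed the minimum only through their OVA libraries, which favours a rise, so these counts are descriptions. The shares over all genes were 20.6% higher and 47.5% lower in Sham, and 20.1% and 45.2% in PM offspring. Il10 rose by 3.85 ± 0.27 in Sham (limma, adjusted p = 4.5e-08) and 2.79 ± 0.30 in PM offspring (adjusted p = 2.6e-05), with 0.0716 ± 0.108 RPM in Sham and 8.26 ± 3.11 in Sham-OVA. In Sham offspring Il21 rose by 0.94 ± 0.29 and Csf2 by 0.63 ± 0.25, and Areg fell by 0.71 ± 0.28, with values of 0.53 ± 0.23, -0.10 ± 0.23 and -0.92 ± 0.49 in PM offspring that were not called. Il3 and Il24 had no read in any library, and Il25 and Il31 had reads in a single library each, at 0.0569 RPM in PM and 0.174 RPM in Sham.

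**Figure D4:**
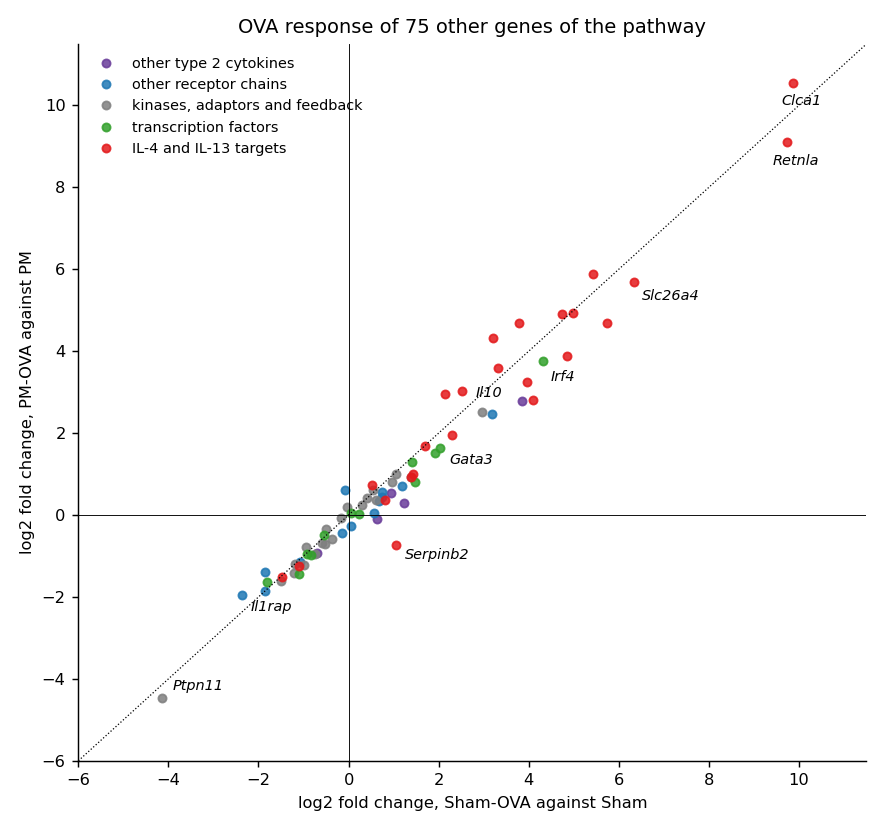
Log2 fold change of OVA against saline in Sham (x axis) and PM (y axis) offspring for the 75 other pathway genes tested, coloured by list, with the line of equal change dotted. Most points lie close to the line, from Ptpn11 at the lower left to Clca1 and Retnla at the upper right, and Serpinb2 is a point with opposite signs (1.04 and -0.72, the second not called).

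The neighbours of the cytokine cluster on chromosome 11 did not all move in its direction. Going along the chromosome, Septin8 fell by 1.498 ± 0.20 in Sham offspring (limma, adjusted p = 1.6e-05) and Kif3a, next to Il4, by 0.44 ± 0.14 (adjusted p = 0.013). Rad50, which lies between Il13 and Il5 and carries the locus control region of the cluster in its introns, fell by 1.84 ± 0.25 in Sham (adjusted p = 1.8e-05) and by 1.74 ± 0.32 in PM offspring (adjusted p = 0.00064). Irf1, beyond Il5, rose by 0.84 ± 0.17 and 0.72 ± 0.21, Slc22a5 fell by 3.85 ± 0.25 and 2.95 ± 0.47, and Pdlim4 rose by 2.94 ± 0.28 and 2.89 ± 0.34. Of the 8 neighbours tested 2 rose and 5 fell in Sham and 3 rose and 4 fell in PM offspring. Of all genes tested, 20.6% were called higher and 47.5% lower in Sham, and 20.1% and 45.2% in PM offspring. At the Il1rl1 locus on chromosome 1, Il1r2 rose with Il1rl1, by 1.43 ± 0.38 and 1.35 ± 0.48, whereas the receptor genes Il1r1 (-1.91 ± 0.40 and -2.54 ± 0.60) and Il18r1 (-1.11 ± 0.21 and -1.66 ± 0.25) and the exchanger gene Slc9a4 (-0.99 ± 0.27 and -0.56 ± 0.21) fell. Of the 6 neighbours 1 rose and 4 fell in each cohort, and Il18r1, which starts right after the end of Il1rl1, was among those that fell. With so few genes, neither count of neighbours was read as a result about its locus.

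**Figure D5:**
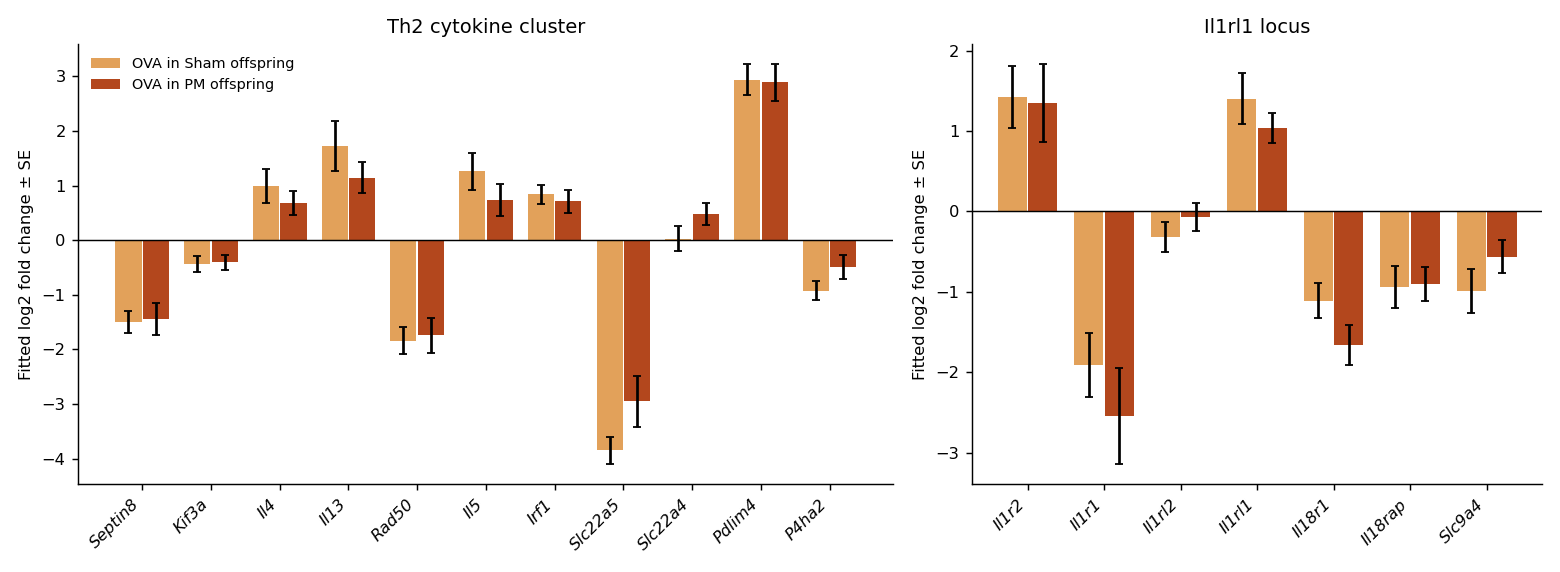
Fitted log2 fold change of OVA against saline, with its SE, for the genes of the Th2 cytokine cluster (left) and of the Il1rl1 locus (right), drawn in their order along the chromosome and not to scale, in Sham (light) and PM (dark) offspring. The bars of Il4, Il13 and Il5 point up with Rad50 between them pointing down, and Il1rl1 points up between Il1rl2 and Il18r1.

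The genes whose pattern over the 23 libraries was most like that of a member were described by Pearson's r on log2(RPM + 0.5). These r values share the group difference and the depth of the libraries, and for the cytokines most libraries held few or no reads. Il4, Il5, Il13 and Il1rl1 were alike, with r from 0.786 (Il4 and Il5) to 0.896 (Il4 and Il13) between pairs, and Il33 correlated with each of them at 0.695 to 0.764. Il13ra1 correlated at 0.763 with Tslp and 0.674 with Il4ra. The closest genes overall were Psph, Il13 and Yars for Il4 (0.899, 0.896 and 0.885), Cdh17, Chst10 and the follicular T helper cytokine gene Il21 for Il5 (0.922, 0.910 and 0.905), and 2010110K18Rik, Chl1 and Ddx4 for Il13 (0.916, 0.916 and 0.915). They were Egln3, Hepacam2 and Mymk for Il1rl1 (0.939, 0.933 and 0.932), Anxa4, Noc4l and Tradd for Il33 (0.918, 0.913 and 0.913), Tbp, Coq3 and Trim17 for Tslp (0.954, 0.948 and 0.947), Mgll, Cd36 and Vopp1 for Il4ra (0.919, 0.918 and 0.916), and the alveolar epithelial junction gene Cldn18, Arhgap44 and Pls3 for Il13ra1 (0.984, 0.980 and 0.979). After the group means were removed, the closest were Cdr2l (0.949) and the endothelial cadherin gene Cdh5 (0.945) for Il4ra, Arhgap44 (0.956) for Il13ra1, Prdm4 (0.951) for Tslp, Adssl1 (0.900) for Il33, Polr3e (0.889) for Il1rl1, Zbtb24 (0.878) for Il5, 2010110K18Rik (0.875) for Il13 and Gm48065 (0.849) for Il4.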

How the data were processed

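RNA-Seq libraries of lung from 23 offspring (7 Sham, 7 PM, 5 Sham-OVA and 4 PM-OVA) were grouped by the labels. Replicate numbers are those of the sample titles. Most OVA libraries carry another number in their library names, and Sham-OVA replicate 3 stands under the name SHAM-OVA_4_RNA. Per the study's methods, reads had been trimmed (Trimmomatic 0.39), aligned to GRCm38 without splicing (Bowtie2 2.5.1, SAMtools 1.17) and quantified in SeqMonk (1.48.1). The gene models and strand setting are not given in the sources used here. The authors deposited RPM values, in a table named after RPKM. In each library 100% of them were whole multiples of 1 read (tolerance 0.02 reads), so reads were recovered.

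Genes reaching 0.5 RPM in 4 or more libraries were tested on log2(RPM + 0.5) with limma 3.58.1 (variance trend, 2 groups a fit, 4 for the interaction) in R 4.3.3, with BH adjustment over all genes tested. Il13ra2 was compared by a two-sided exact permutation test in Python 3.11.15 (scipy 1.17.1), and figures were drawn with matplotlib 3.10.9. Alternatives were edgeR 4.0.16 and DESeq2 1.42.0 on recovered reads, other pseudocounts, filters and scalings, thinning to 2298645 reads, and leaving out each library. The fits without the 3 shallowest libraries or with the trend in transcript length removed, DESeq2 at the study's threshold, and the pooled read ratios, were added after seeing the data. The fits were tested on simulated data. Intervals and floors of reads cover counting error only.

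The members and lists were chosen with earlier results of these data known. Besides the members, each pathway, cytokine and neighbour list names its 3 largest and 3 smallest log2 fold changes among genes called in Sham offspring. Other genes named, such as Stat6, Il7r, Il9r, Kif3a, Serpinb2 and the cell markers, were chosen after their values were seen. Gene positions and exonic lengths are from the GENCODE annotation of GRCm38, where Septin8 stands under an older symbol, and promoters from RefSeq.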

Additional observations from a re-analysis of the deposited data

Results flagged for a closer look

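In groups of 4 to 7 libraries, a library was singled out when its gap to the nearest other was large for the range of its group on the log2 scale (Dixon's criterion at 95%). This held in 8 of 35 groups of values, where chance gives about 1 in 20. That rate does not apply to 3 of the 8, Il13 and Il13ra2 in PM and Il13ra2 in PM-OVA, in which every other library was at 0, so that a few reads suffice. Sham-OVA replicate 3 was the lowest of its group for Il33, at 52.8 RPM against 133 to 161 RPM, and for Tslp, at 0 RPM against 4.21 to 5.35 RPM. It was also the shallowest library, and its median gene was lower by 1.03 on the log2 scale than the Sham mean. PM replicate 5 was the lowest PM library for Il4ra, at 148 RPM against 252 to 330 RPM. PM-OVA replicate 1 was the highest of its group for Il1rl1, at 34.1 RPM against 21.0 to 22.6 RPM, and for Il13ra2, at 0.269 RPM from 4 reads against 0 in the others. PM replicate 6 was the highest PM library for Il5, at 0.489 RPM from 8 reads, and for Il13ra2, at 0.0611 RPM from 1 read. PM replicate 7 was the highest for Il13, at 0.114 RPM from 2 reads against 0 in the others. No difference in OVA response between Sham and PM offspring passed the interaction test for any of the 8 genes.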

How the results depend on the processing

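Each of the 8 genes tested kept its direction after OVA challenge in both cohorts under every alternative run. Il1rl1 and Il13ra1 kept their calls in each fit, and Il13 lost its call only in PM offspring with the trend in transcript length removed. In Sham offspring the number of genes called higher was 4, and 2 with a filter on the mean (which leaves Il4 and Il5 untested), 2 with the trend in transcript length removed, 0 at the study's own threshold with limma and 2 at that threshold with DESeq2, with 4 to 5 on leaving out 1 library. The number called lower was 2, and 1 with a pseudocount of 0.1, without a filter, after quantile normalisation or median-of-ratios scaling and with edgeR, 0 at the study's threshold with limma or DESeq2, and 1 to 3 on leaving out 1 library. In PM offspring 5 were called higher, and 3 with a filter on the mean or all 4 groups in one fit, 2 with the replicate block, 1 with the length trend removed, and at the study's threshold 0 with limma and 1 with DESeq2, with 2 to 5 on leaving out 1 library (2 without PM-OVA replicate 2, 3 without PM-OVA replicate 1). There 2 were called lower, and 1 with the replicate block, quantile normalisation, scaling by the median of ratios, a joint fit of all groups, edgeR, DESeq2, thinning, or the 3 shallow libraries left out, 0 at the study's threshold with limma or DESeq2, and 1 to 3 on leaving out 1 library. Of the other pathway genes, 38 rose in Sham and 34 in PM offspring, and 15 and 4 at the study's threshold with limma, or 34 and 25 with DESeq2 (35 to 42 and 32 to 34 on leaving out 1 library). The numbers that fell were 21 and 19, and 1 and 0 at the study's threshold with limma, 6 and 3 at that threshold with DESeq2, 12 in Sham with edgeR and 11 in PM offspring without the 3 shallow libraries (19 to 21 and 18 to 23 on leaving out 1 library). The causes were not tested. Tslp in PM-OVA against Sham-OVA changed sign without Sham-OVA replicate 3, with a range of -0.00041 to 0.89 on leaving out 1 library. None of the 8 genes was called in the maternal comparisons or the interaction in any fit. Over all genes the interaction was called for 0 genes, and for 612 higher and 109 lower without the 3 shallow libraries, which left 2 PM-OVA libraries. The number of all genes higher after OVA, 3453 in Sham and 3379 in PM offspring, was 5484 and 5288 after quantile normalisation, 5584 and 5120 with edgeR and 5286 and 5321 with DESeq2. At the study's threshold 333 were higher and 425 lower in Sham and 44 and 4 in PM offspring with limma, but 2302 and 2512, and 1767 and 1050, with DESeq2, and 5 and 0, and 0 and 0, with the replicate block.

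Deviations of same-numbered libraries from their group means had correlations of -0.07 to 0.12 over 5 numbers between Sham and Sham-OVA, -0.10 to 0.06 over 4 between PM and PM-OVA, -0.25 to 0.10 over 7 between Sham and PM, and -0.31 to 0.62 over 4 between the OVA groups, where 3 of 4 were over 0.1. In no comparison were all over 0.1, so the numbers were not taken as pairs. These are the numbers of the sample titles. Most OVA libraries carry another number in their own library names, and a pairing by those names was not tested. With the replicate block the count of genes called higher was 4 in Sham and 2 in PM offspring. Depth limits the low cytokines most, since 3 reads correspond to 0.398 RPM in PM-OVA replicate 3 and 0.932 RPM in Sham-OVA replicate 3.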

Other observations

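Cytokines outside the type 2 arm were also examined after OVA challenge. Of 15 such genes 8 were tested, and 0 rose in either cohort, 2 fell in Sham and 3 in PM offspring (limma, BH adjusted p under 0.05). Beside 20.6% higher and 47.5% lower over all genes in Sham, and 20.1% and 45.2% in PM offspring, these counts are descriptions. Il1a fell in both cohorts, with 16.8 ± 3.0 RPM (SD, n = 7) in Sham against 3.35 ± 1.72 (n = 5) in Sham-OVA. The PM level of 19.1 ± 6.8 RPM (n = 7) compared with 4.29 ± 3.78 (n = 4) in PM-OVA. Il18, an epithelial and macrophage cytokine, fell by 1.02 ± 0.42 and 1.44 ± 0.22 on the log2 scale. Ifng, the signature cytokine of type 1 immunity, did not pass the low-value minimum, with a mean of 0.274 RPM in Sham and 0.391 RPM in Sham-OVA, and Il22 had no read in any library.

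The summed level of 6 basophil markers was 141 RPM in Sham-OVA replicate 4, where the other 8 OVA libraries had 2.49 to 18.1 RPM and the saline libraries 10.01 to 15.9 RPM. That library also had the highest Il4, at 1.59 RPM, although Sham-OVA replicate 1, with 16.7 RPM of basophil markers, was close behind at 1.39 RPM. The part of basophils in the level of Il4 was not tested.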
